A study of Mus musculus with 598 samples.

Results

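The 9 genes described here, Pou5f1, Nanog, Sox2, Otx2, Utf1, Eras, Pim2, L1td1 and Slc7a3, are genes of the pluripotent epiblast that are switched down as its cells enter other lineages. They were taken by name, as 9 of the 40912 genes in the count table, and followed over gastrulation stage and in a knockout. The name states what the genes are known for, and by level they differed: 3 of the 9 were at least 2-fold lower at the later stage, while Eras and Slc7a3 were slightly higher in summed reads, though Eras was lower by the mean of log2 values over cells.

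The libraries came from single mouse cells sorted for GFP from a Mesp1 reporter, a gene of the first mesoderm that leaves the primitive streak, and each library is 1 cell. The embryos were of embryonic days E6.75 and E7.25 and all cells were Mesp1-GFP positive. Wild type made up 28.8% of all cells from the earlier stage and 57.02% from the later one, and the 85 knockout cells (14.2%) came from E6.75. The labels give no strain, allele or embryo of origin. They do not name the gene that was knocked out and do not describe how the reporter was built. Cells without GFP are outside the sort. With no embryo, litter or pool named, each group is 1 sample, so no test between groups was possible and a difference is described by its size, with 2-fold as the mark.

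Pluripotency rests on a few transcription factors that bind many of the same regulatory elements. Pou5f1 (Oct4) binds an octamer sequence, often beside a site of its partner Sox2, and Nanog is a homeodomain factor of the same circuit. In the gastrulating embryo Nanog is known to be active in the posterior epiblast, Sox2 is kept in the anterior and neural part, and Otx2 accompanies the step from naive to primed pluripotency. Mesoderm cells that pass through the streak lose these factors at different speeds.

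Depth ran from 101895 to 14159574 reads on genes per cell. There were 2 sets of libraries, told apart only by their reads since no label names them: all 85 knockout cells and 83 wild type cells of E6.75 were in set 1 and 89 wild type cells of E6.75 in set 2, and the E7.25 cells were split between both. Set 2 was deeper, with median cells of 1799029 and 2264484 reads against 689539 to 940161 in set 1. Cells with over 3 CPM of Y-linked genes are called cells with Y-linked reads. None of the set 2 cells passed that mark, whereas 49 of the knockout cells and 53 of the wild type cells of E6.75 in set 1 did. Beside the knockout, levels of wild type at E6.75 are therefore given in both sets, and the knockout is compared mainly within set 1. The levels by stage join the sets unless a set is named. Mesp1 itself, the gene of the reporter, stood at 7.40 reads per 1000000 reads on genes (CPM) in knockout cells, and wild type of set 1 at 406 CPM. Markers of nascent mesoderm, all 10 of them above 1 CPM in every group, summed to between 2585 and 3963 CPM. Those of epiblast epithelium (7 of 7 above 1 CPM) summed to 639 CPM in the knockout group, against 329.2 and 388 CPM in the wild type sets of that stage and 200.7 and 258.2 CPM in those of E7.25. The protocol text attached to the samples speaks of adult bone marrow, which does not match embryos, and the 9 blood and bone marrow markers summed to only 7.14 to 15.7 CPM.

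Nanog, Pim2 and L1td1 were the members at least 2-fold lower at E7.25, so the bases just before these genes are shown, from RefSeq windows of build GRCm38.p6 (8 of the 9 members matched, all but Slc7a3). Capitals mark the octamer core, ATGCAAA or TTTGCAT on the other strand, and in Nanog also the adjoining Sox site.
Nanog, chr6:122707239-122707488, plus strand: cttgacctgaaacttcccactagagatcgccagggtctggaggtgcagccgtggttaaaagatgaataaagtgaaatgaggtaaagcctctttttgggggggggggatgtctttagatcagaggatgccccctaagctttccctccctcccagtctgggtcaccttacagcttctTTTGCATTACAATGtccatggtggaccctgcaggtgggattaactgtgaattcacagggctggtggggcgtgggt
Pim2, chrX:7878056-7878261, plus strand: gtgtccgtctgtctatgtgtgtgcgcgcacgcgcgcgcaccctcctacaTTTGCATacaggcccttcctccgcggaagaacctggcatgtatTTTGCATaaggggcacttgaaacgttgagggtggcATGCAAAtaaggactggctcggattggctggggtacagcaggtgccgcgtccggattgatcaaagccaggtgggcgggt
L1td1, chr4:98726504-98726733, plus strand: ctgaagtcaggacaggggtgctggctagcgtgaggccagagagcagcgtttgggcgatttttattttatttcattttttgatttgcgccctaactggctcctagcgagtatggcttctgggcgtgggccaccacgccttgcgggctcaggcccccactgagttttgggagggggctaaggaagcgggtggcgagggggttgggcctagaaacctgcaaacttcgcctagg
The Nanog stretch held 1 octamer core, which overlaps a match of TTGCATNACAATG, an octamer end and a Sox site (ACAATG) with 1 free base between them. That joint motif was in 4 of 32851 RefSeq windows (0.0122%), of 3 genes, and 2 of the 4 were overlapping windows of Nanog itself. The Sox site alone was in 12.6% of windows, among the members in those of Eras, Nanog and Pou5f1. The Pim2 stretch held 3 octamer cores, a number reached by 9 windows (0.0274%), and 2 of the 3 extend to the full octamer ATGCAAAT. Of all windows 4.63% held the core and 1.74% the octamer, and among the other members only Sox2 had a core. The letters were not found in the L1td1 stretch. These matches are letters in a window and not measured sites.

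The first comparison asked how far the 9 genes came down between E6.75 and E7.25 in wild type Mesp1 cells. Nanog, Pim2 and L1td1 were 4- to 7-fold lower at E7.25, and in each case a smaller share of cells held a read of them. Markers of other cell types also differed by stage: the 7 definitive endoderm markers summed to 45.7 and 50.5 CPM in the sets of E6.75 and to 222.4 and 201.6 CPM at E7.25, and the 8 extraembryonic ectoderm markers to 22.6 and 31.96 CPM against 78.02 and 53.5 CPM. Their part in the stage differences was not tested. Pou5f1 had a read in nearly all thinned cells at both stages and Otx2 in most, Sox2 was close to the detection limit at both stages, and Utf1, Eras and Slc7a3 were carried by a minority of cells at both. Of the 9 genes, 3 were at least 2-fold lower and 0 at least 2-fold higher, against 2.09% and 4.93% of the 14217 genes with at least 1 CPM in either group. The same 3 were lower within set 1, where 4.73% of genes were, and within set 2, where 2.6% were. The median log2 ratio, of CPM with 1 CPM added, was -0.34 for the 9 genes and 0.03 for all genes.

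**Figure D1:**
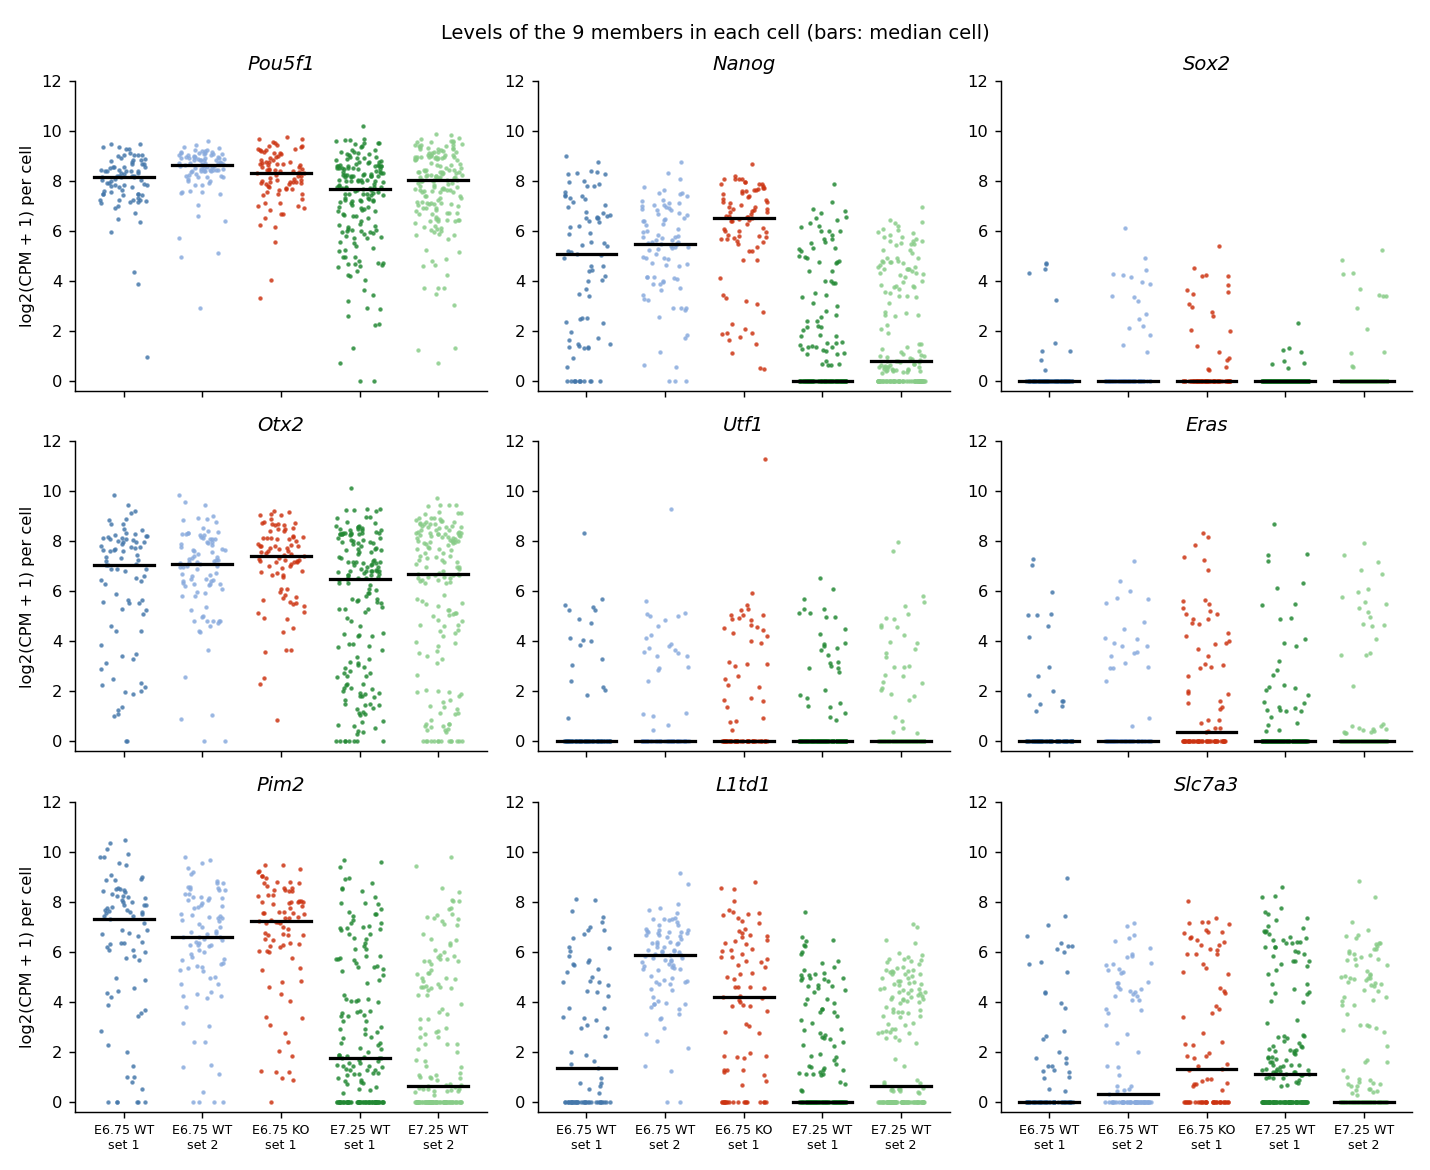
Level of each gene in each cell, as log2(CPM + 1) on the vertical axis, for the 5 combinations of stage, genotype (WT wild type, KO knockout) and library set; points are cells and bars the median cell. Nanog, Pim2 and L1td1 have lower medians at E7.25, Pou5f1 and Otx2 stay high, and 1 knockout cell stands alone at the top of the Utf1 panel.

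Pou5f1, the POU factor of the circuit (chr17:35506018-35510772, plus strand, GRCm38), had reads in every wild type cell at E6.75. Its level there ran from 0.957 to 776 CPM with a median cell at 342 CPM, and at E7.25 from 0 to 1163 CPM with a median of 221.3 CPM. The ranges overlap over nearly their whole length, and the later stage had the highest cell as well as more low ones: the 10th percentile cell stood at 26.8 CPM at E7.25 and at 141.9 CPM at E6.75. Summed over cells, Pou5f1 was at 361 CPM (95% Poisson interval 359 to 364) in E6.75 cells and 290 CPM (288.8 to 291.6) in E7.25 cells, a log2 ratio of -0.31. Such intervals hold only the error of counting reads. No molecular identifiers mark which reads are copies of 1 molecule, so they are too narrow for counts of molecules. The exact binomial intervals on shares of cells hold only the error of counting cells within 1 sample per group. Neither kind compares groups, whether or not intervals overlap. After thinning every cell to 100000 reads, which makes shares of cells comparable across depths, 98.3% and 95.9% of cells had a Pou5f1 read. Per kilobase of exon Pou5f1 was the highest of the 9 genes in all groups and sets. The antisense gene Gm19553 overlaps it and the strand setting of the counting is not given in the sources used here, so reads of the pair cannot be told apart.

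Nanog (chr6:122707489-122714633, plus strand), the homeodomain factor, had a median cell of 41.1 CPM at E6.75 in a range of 0 to 505 CPM. At E7.25 the median was 0.388 CPM and the highest cell 233.7 CPM. The cells of both stages overlap, and a median of that size is about 1 read in a deep cell. Summed levels were 82.4 CPM (81.3 to 83.5) and 12.6 CPM (12.4 to 12.9), a log2 ratio of -2.61, with -2.71 within set 1 and -2.54 within set 2. Thinned cells with a read went from 76.2% (69.1 to 82.3) to 29.3% (24.5 to 34.5). The processed pseudogenes Nanog-ps1 and Nanog-ps2 stood at 0.210 and 0.0227 CPM over all cells, far under the gene itself.

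Sox2 (chr3:34650405-34652461, plus strand), the SRY-box partner of Pou5f1, was the lowest of the 9 genes per kilobase in every group and set. The median cell was at 0 in all of them, and the highest single cells were at 69.5 CPM at the earlier stage and 37.1 CPM at E7.25. Summed levels were 1.71 CPM (1.56 to 1.88) and 0.862 CPM (0.786 to 0.942), and thinned cells with a read were 7.56% and 2.93%. The ratio was -0.54, and 5 cells gave 62.4% of the reads at E6.75 and 80.9% at E7.25. Sox2 lies inside the longer transcript Sox2ot, whose reads were not separable from its own here.

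Otx2 (chr14:48657677-48673819, minus strand), a homeobox factor of primed epiblast and anterior head, differed little. Its median cell was at 134.3 CPM (0 to 932) at the earlier stage and 94.97 CPM (0 to 1121) at the later, with overlapping ranges. The 10th percentile cell was at 5.14 CPM at the earlier stage and 0.585 CPM at the later. Summed levels were 172.5 CPM and 156.9 CPM, a log2 ratio of -0.14, and thinned cells with a read were 88.95% and 76.2%. The sets differed: -0.45 in set 1 and 0.00 in set 2, where the levels were 170.9 and 171.5 CPM. In both sets the cells spread further at E7.25, with a standard deviation over cells of log2(CPM + 1) of 2.99 against 2.26. The genes Otx2os1 and Gm49154 overlap Otx2, and Otx2os1 had 67 reads over all cells.

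Pim2 (chrX:7878262-7883432, plus strand) encodes a serine/threonine kinase known for promoting cell survival. The median cell was at 108.8 CPM at E6.75 (0 to 1401) and at 1.44 CPM at E7.25 (0 to 893). A part of the E7.25 cells stayed as high as E6.75 cells, since the 90th percentile cell was still at 142.6 CPM. Summed levels were 210 CPM (207.7 to 211.3) and 49.05 CPM (48.5 to 49.6), a log2 ratio of -2.07, and -2.12 and -2.01 within the sets. Thinned cells with a read were 84.3% (77.99 to 89.4) and 36.95% (31.8 to 42.3). As the difference of the mean of log2(CPM + 1) per cell, Pim2 had the lowest value of the 9 genes, -3.63, ahead of Nanog at -3.07.

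L1td1 (chr4:98726734-98738480, plus strand) encodes an RNA-binding protein derived from a LINE-1 element and made in embryonic stem cells. Its 2 sets disagreed in level at E6.75: 16.5 CPM (15.7 to 17.4) in set 1, with a median cell of 1.58 CPM, and 75.2 CPM (73.9 to 76.6) in set 2, with a median cell of 57.9 CPM. Thinned cells with a read were 44.6% in set 1 and 92.1% in set 2, with every cell thinned to the same depth. At E7.25 the sets were nearer, at 7.15 and 12.97 CPM, with a read in 23.7% and 35.1% of thinned cells. The log2 ratio of the stages was thus -1.10 in set 1, just past 2-fold, and -2.45 in set 2, and -2.18 with the sets together. The sets also differ in depth and in cells with Y-linked reads, whose part in the L1td1 gap was not tested. In wild type of set 1 at E6.75, L1td1 was at 19.6 CPM in cells with Y-linked reads and 10.96 CPM in those without.

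Utf1 (chr7:139943789-139945112, plus strand), a chromatin-associated protein of pluripotent cells, was read in few wild type cells. The median cell was at 0 at both stages, and the highest reached 622 CPM at the earlier stage and 251.7 CPM at the later. Summed levels were 7.91 and 6.05 CPM, a log2 ratio of -0.34. Thinned cells with a read were 18.02% (12.6 to 24.6) and 10.9% (7.76 to 14.6), intervals that overlap. With every cell weighted equally the ratio was -1.02 and Utf1 passed 2-fold, and so did Sox2 at -1.04, which made 5 of 9 genes lower against 1.98% of all genes under that weighting.

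Eras (chrX:7924276-7928607, minus strand), a constitutively active Ras-like GTPase first known from embryonic stem cells, and Slc7a3 (chrX:101079210-101086020, minus strand), a transporter of cationic amino acids, were not lower at E7.25 in summed reads. Eras had a median cell at 0 at both stages, highest cells of 157.9 and 413 CPM and summed levels of 6.45 and 7.43 CPM, a log2 ratio of 0.18, and the difference of the means of log2(CPM + 1) per cell was -0.23. Slc7a3 had median cells at 0 and 0.257 CPM, highest cells of 493 and 457 CPM and summed levels of 16.9 and 21.9 CPM, a log2 ratio of 0.36. For Eras the share of thinned cells was 13.95% and 9.68%, with overlapping intervals (9.15 to 20.05 and 6.76 to 13.3), and for Slc7a3 it was 29.7% and 30.2%. Eras overlaps Pcsk1n on the other strand, and their reads cannot be told apart.

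**Figure D2:**
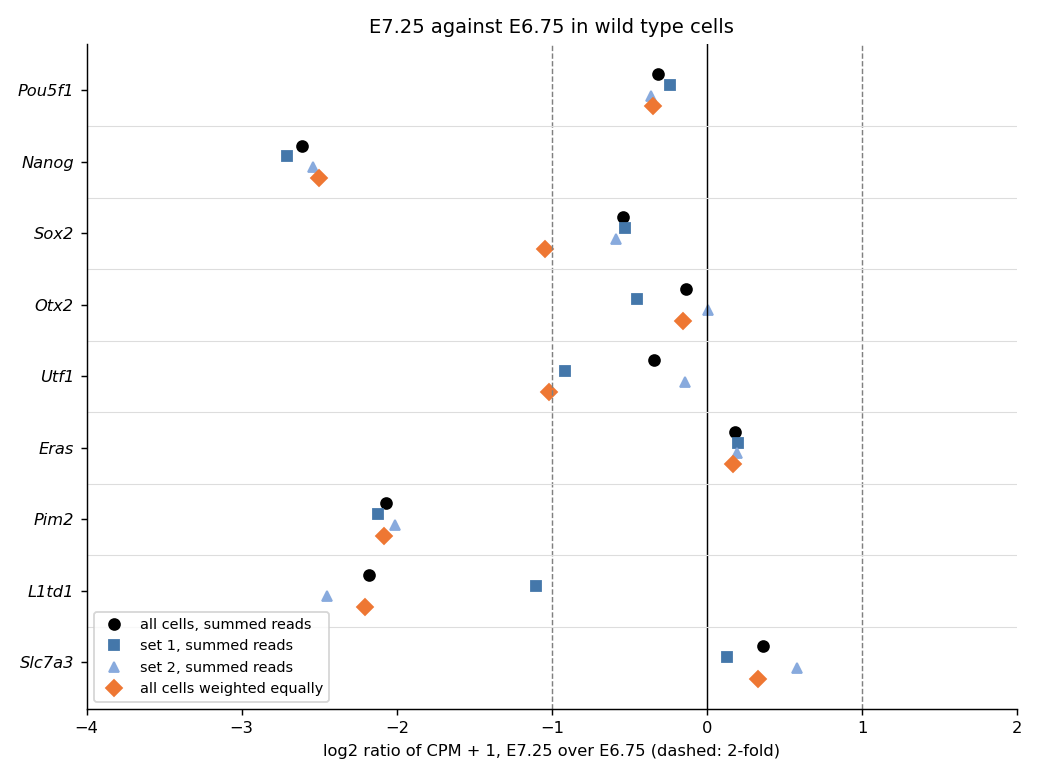
Log2 ratio of CPM + 1 at E7.25 over E6.75 in wild type cells (horizontal axis) for the 9 genes, from all cells, from each library set and with every cell weighted equally; dashed lines mark 2-fold. Nanog, Pim2 and L1td1 lie to the left of -1 in all 4 forms, and L1td1 in set 1 is nearest to the line at -1.10.

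Per kilobase of exon the order of the genes changed with stage. At E6.75 in wild type it ran Pou5f1 (160.7 CPM per kb), Pim2 (74.96), Otx2 (40.9), Nanog (36.7), L1td1 (16.9), Utf1 (6.45), Eras (5.99), Slc7a3 (4.46) and Sox2 (0.833). Otx2 and Nanog could not be ordered within the spread of the sets (41.5 and 40.5 against 41.4 and 34.03 CPM per kb), nor could L1td1, Utf1, Eras and Slc7a3. At E7.25 Otx2 was next after Pou5f1, at 37.2 CPM per kb, ahead of Pim2 at 17.5, and the genes from Eras (6.90) to L1td1 (3.47), with Nanog at 5.64 among them, lay close together.

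The second comparison asked whether knockout cells at E6.75 keep the epiblast genes. Within library set 1, 8 of the 9 genes were higher in summed reads than in wild type of the same stage and set and Pim2 was slightly lower. As a difference of the means of log2(CPM + 1) per cell Pim2 was higher too, at 0.32. Those at least 2-fold higher were Utf1, Eras, L1td1 and Sox2, 4 of 9 against 4.8% of the 13934 genes with at least 1 CPM, and 0 of 9 were 2-fold lower, against 7.64%. The median log2 ratio was 0.91 for the 9 genes and -0.03 for all genes. The Utf1 value came from 1 cell, and without it 3 of 9 were 2-fold higher (Sox2, Eras and L1td1), against 4.53% of genes, with a median of 0.43. With every cell weighted equally Utf1 and Eras passed (3.83% of genes), and against wild type cells of both sets Utf1, Eras and Slc7a3 did (2.74% of genes). Wild type cells of E6.75 are the baseline of this comparison and of the one by stage, which are therefore not independent.

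Among the transcription factors, Pou5f1, Nanog and Otx2 were within 2-fold in summed reads and Sox2, at low levels, was not. Pou5f1 was at 378 CPM (375 to 382) in knockout, with a median cell of 320.5 CPM in a range of 9.10 to 866, against 290 CPM in wild type of set 1 and 403 CPM in set 2. The knockout thus lay between the wild type sets. Nanog was at 115.3 CPM (113.3 to 117.3) with a median cell of 90.1 CPM (0.406 to 405), against 92.8 CPM with a median cell of 33.2 CPM (0 to 505) in wild type of set 1. The knockout cells were fuller at the low end, since all 85 had a Nanog read and 85.9% (76.6 to 92.5) had one after thinning, against 66.3% (55.1 to 76.3) in wild type. In set 2 of the wild type that share was 85.4%, with a median cell of 43.99 CPM. Split by Y-linked reads, wild type cells with Y-linked reads were at 114.04 CPM and those without at 54.04 CPM, whereas the corresponding knockout cells were at 117.9 and 110 CPM. Otx2 was at 202.2 CPM in knockout, with cells from 0.788 to 590 CPM, against 175.2 CPM in wild type of set 1 and 170.9 CPM in set 2, a log2 ratio of 0.21 within set 1. Per cell the difference of the means of log2(CPM + 1) was larger, 1.40 for Nanog and 0.87 for Otx2.

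Sox2 in knockout was at 2.40 CPM (2.12 to 2.70), and wild type of set 1 was at 0.549 CPM (0.410 to 0.720). Thinned cells with a read were 12 of 85 and 4 of 83, with overlapping intervals (7.51 to 23.4% and 1.33 to 11.9%). Wild type of set 2 stood at 2.40 CPM as well, so the 2-fold call rests on the low level of set 1. L1td1 was at 60.3 CPM (58.9 to 61.7), with a median cell of 17.3 CPM (0 to 444), against 16.5 CPM with a median cell of 1.58 CPM (0 to 271.6) in set 1, a log2 ratio of 1.81. It was below the 75.2 CPM of wild type in set 2, and against both sets together the ratio was 0.17. In knockout it stood at 79.6 CPM in cells with Y-linked reads and at 23.6 CPM in those without.

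Pim2 was at 205.5 CPM (202.9 to 208.2) in knockout, with a median cell of 150.95 CPM, and at 258.6 CPM in wild type of set 1, with a median cell of 157.04 CPM. Wild type of set 2 was at 180.7 CPM, so the knockout lay between the sets. The highest wild type cell, at 1401 CPM, was nearly 2-fold above the highest knockout cell at 711 CPM, while 94.1% of thinned knockout cells had a read against 83.1%. Slc7a3 was at 44.5 CPM (43.3 to 45.8), with a median cell of 1.47 CPM and a highest of 262.1 CPM, against 23.2 CPM with a median of 0 and a highest of 493 CPM in set 1, and 13.1 CPM in set 2. Its ratio of 0.91 was just under 2-fold, and 41.2% of thinned knockout cells had a read against 21.7%. In cells with Y-linked reads Slc7a3 was at 58.4 CPM in knockout against 25.1 CPM in wild type of set 1. In cells without them knockout was the lower group, at 18.1 against 19.8 CPM, and at 12.2 against 22.6 CPM with every cell weighted equally.

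**Figure D3:**
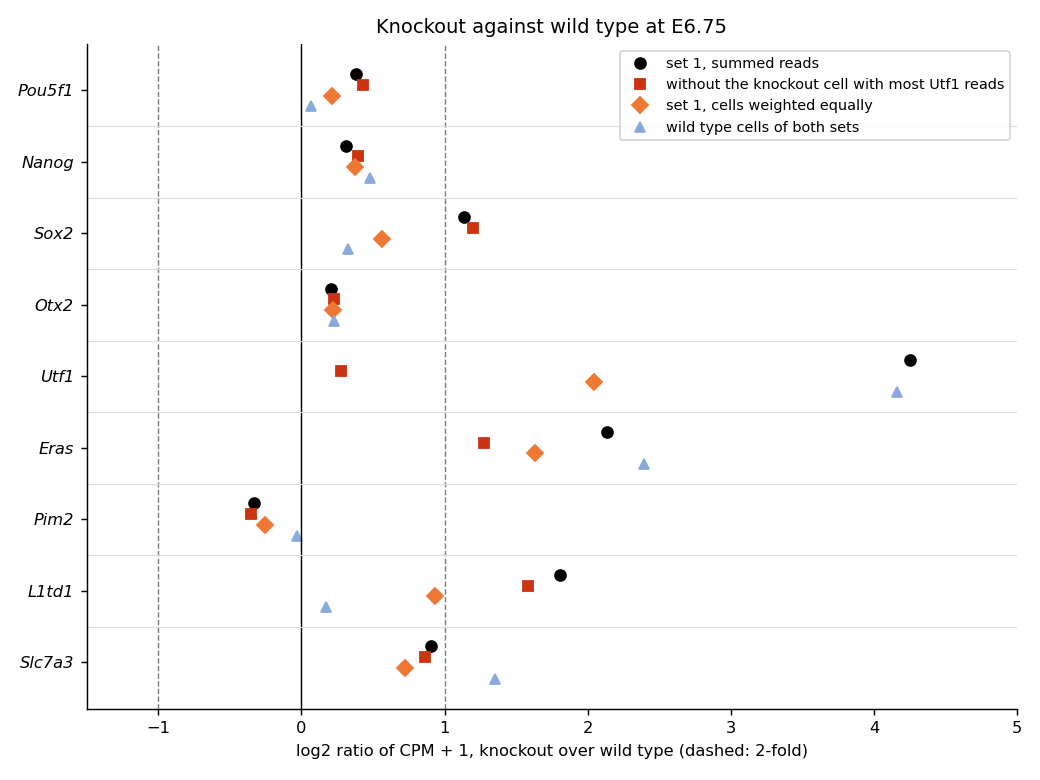
Log2 ratio of CPM + 1 in knockout over wild type at E6.75 (horizontal axis) for the 9 genes: library set 1, the same without the knockout cell with most Utf1 reads, with every cell weighted equally, and against wild type cells of both sets; dashed lines mark 2-fold. Utf1 moves from 4.25 to 0.28 without 1 cell, and L1td1 from 1.81 to 0.17 when wild type cells of set 2 are added.

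Utf1 in knockout summed to 158.03 CPM (155.7 to 160), against 7.37 CPM (6.83 to 7.94) in wild type of set 1 and 8.23 CPM in set 2. The median knockout cell was at 0, the 90th percentile cell at 29.4 CPM and the highest at 2539 CPM. That 1 cell, the second deepest of the knockout with 6700760 reads and 12184 genes, gave 94.6% of all Utf1 reads of the group, and the next highest cell was at 60.5 CPM. Without it Utf1 was at 9.15 CPM (8.58 to 9.74) and the log2 ratio 0.28 in place of 4.25. Knockout cells with Y-linked reads, this cell among them, were at 240 CPM and those without at 3.08 CPM. Single cells also weighed in wild type, where the top cell held 27.5% of the Utf1 reads in set 1, 49.96% in set 2 at E6.75, and 19.7% and 34.5% at E7.25. By cells, 30.6% (21.05 to 41.5) of thinned knockout cells had a Utf1 read against 16.9% (9.54 to 26.7) in set 1 and 19.1% in set 2, with overlapping intervals.

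Eras in knockout summed to 38.1 CPM (36.9 to 39.2), against 7.89 CPM (7.33 to 8.47) for wild type of set 1 and 5.60 CPM for set 2, a log2 ratio of 2.14 within set 1. The median knockout cell was at 0.282 CPM and the highest at 319.4 CPM, while in wild type the median was 0 and the highest 157.9 CPM. The highest cell was the one that held the Utf1 reads, and with 49.4% of the Eras reads it moved the level less: without it Eras was at 20.5 CPM (19.6 to 21.4) and the log2 ratio at 1.27. In wild type of set 1 the cell with most Eras reads held 24.2% of them. The top 5 cells held alike shares in both groups, 81.5% in knockout and 82.999% in wild type. Thinned cells with a read were 31.8% (22.1 to 42.8) in knockout, 9.64% (4.25 to 18.1) in wild type of set 1 and 17.98% (10.6 to 27.5) in set 2. These intervals count cells within 1 sample per group, so their separation or overlap does not compare the genotypes. In cells with Y-linked reads, the cell that held the Utf1 reads among them, the levels were 54.1 and 11.3 CPM. In those without they were 7.78 and 1.67 CPM, so by summed reads knockout cells were higher in both. With every cell weighted equally, the knockout cells without Y-linked reads were only slightly higher, at 6.14 against 5.39 CPM. Those with Y-linked reads were then at 32.4 against 6.67 CPM. Among cells without Y-linked reads, 19.4% of thinned knockout cells had a read against 3.33%.

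**Figure D4:**
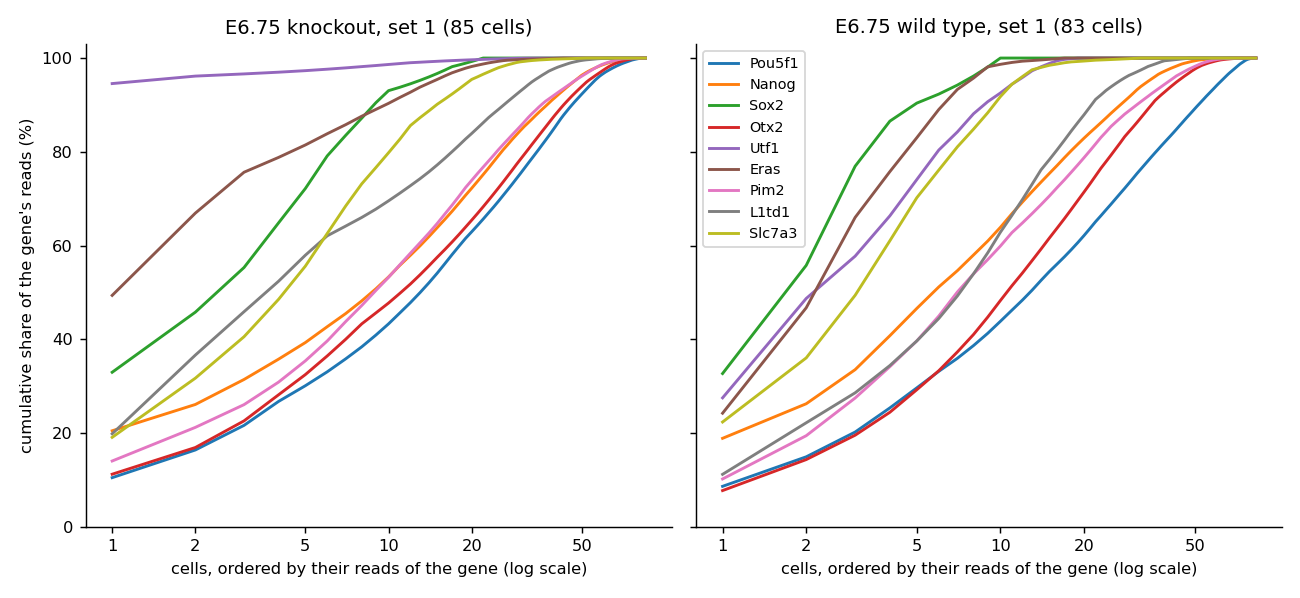
Cumulative share of each gene's reads (vertical axis, percent) held by the cells that had most of them (horizontal axis, number of cells, log scale), for knockout cells at the left and wild type cells at the right, both at E6.75 in library set 1. In knockout the Utf1 curve starts at 94.6% and the Eras curve at 49.4% with 1 cell, while Pou5f1 and Otx2 are spread most widely in both groups.

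The cell with the Utf1 reads stood apart from the other 84 knockout cells in some further genes of the epiblast, in both directions, and it was singled out after its values were seen. It was the highest knockout cell for Eras (319.4 CPM), for the growth factor genes Fgf4 (191.6 CPM) and Gdf3 (75.8 CPM), for Dppa4 (102.8 CPM), Sall2 (207.1 CPM) and the DNA methyltransferase Dnmt3a (457 CPM). Dnmt3b stood at 1554 CPM in it against a median of 532 CPM in the others. By contrast Pou5f1, at 153.6 CPM, was in place 71 of 85 in order of level, and Nanog was at 3.88 CPM against a median of 91.3. Sox2 had no read, as in most of the other cells, whose median was also 0. It was the lowest of the 85 cells for the Nodal co-receptor gene Tdgf1 (55.1 CPM against a median of 1293). Summed over the lists of 16 genes described further on, the formative and primed genes were at 6164 CPM in it against a median of 1790.5 CPM. The largest parts of that sum were Bex1 (2231 CPM) and Dnmt3b. Other genes of that list were lower in it than the median, among them Fgf5 (13.6 against 102.2 CPM), Nodal (7.61 against 55.1 CPM) and Lef1 (8.21 against 41.5 CPM). The naive genes summed to 519.9 against 95.7 CPM, although 10 of them had no read. The general pluripotency genes were lower, at 1099 against 2698 CPM. Markers of epiblast epithelium summed to 1784 CPM against a median of 525 CPM in the others, and those of nascent mesoderm to 136.999 CPM against 2642 CPM. Of the 8 extraembryonic ectoderm markers 0 had a read in it, and 0 of the 7 germ cell markers reached 1 CPM.

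Counted per thinned cell, the genes were detected together less often at the later stage. Of the 9 genes the median wild type cell had reads of 5 at E6.75 and of 3 at E7.25, with means of 4.86 and 3.21. Knockout cells had a median of 5 and a mean of 5.51, wild type cells of set 1 a median of 4 and a mean of 4.28, and those of set 2 a median of 5 and a mean of 5.40. Cells with reads of all 3 of Nanog, Pim2 and L1td1, a trio chosen after the stage values were seen, made up 28.9% (19.5 to 39.9) of wild type of set 1, 69.7% (59.008 to 78.97) of set 2 and 50.6% (39.5 to 61.6) of knockout. At E7.25 they were 5.20% and 7.14%. Cells with none of the trio were 36.4% and 34.5% at E7.25, 8.43% and 1.12% at E6.75, and 0 of 85 in knockout, which allows a share of up to 4.25%. Knockout thus lay between the wild type sets in cells with all of the trio. In the mean number of genes, 5.51 against 5.40, it was close to wild type of set 2. The same held for cells with none of the trio, 0 of 85 against 1 of 89.

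**Figure D5:**
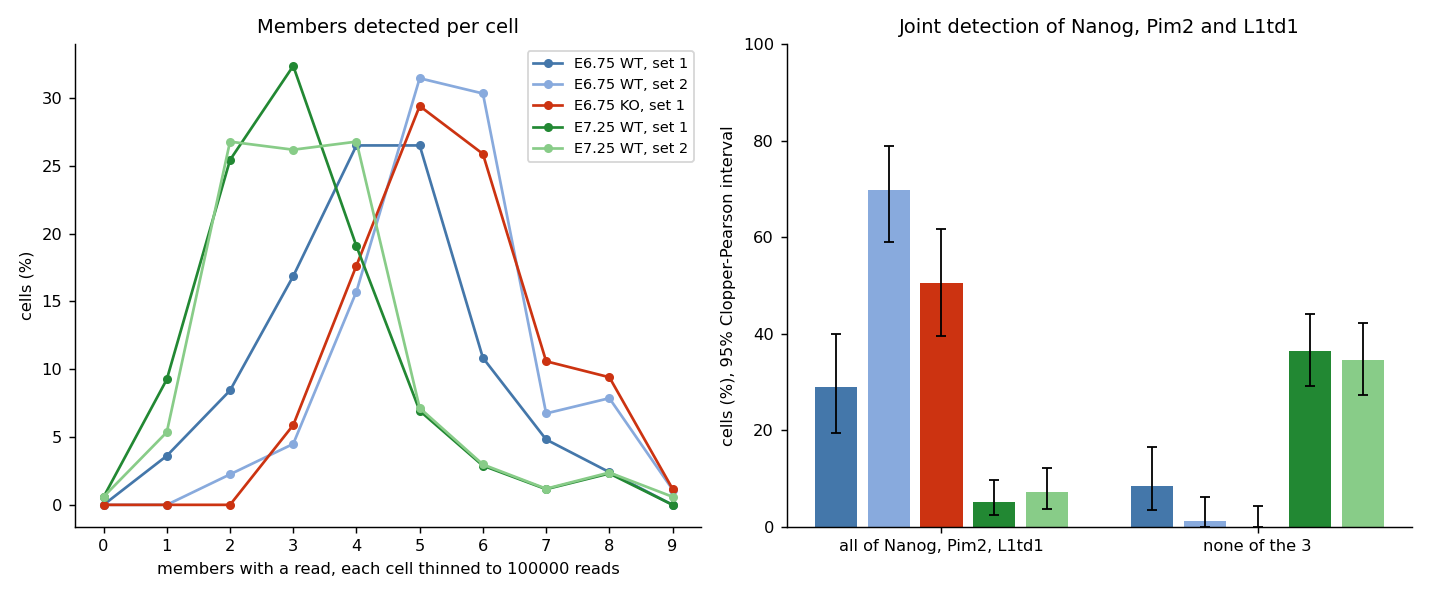
Left, share of cells (vertical axis, percent) by the number of the 9 genes with a read after thinning to 100000 reads (horizontal axis), for each group and library set; right, share of cells with reads of all, or of none, of Nanog, Pim2 and L1td1, with 95% Clopper-Pearson intervals. The E7.25 cells centre on 3 genes and the knockout cells on 5, and no knockout cell lacked all of the trio.

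Within a group the 9 genes were only loosely coupled from cell to cell. Over the 36 pairs, the median Pearson r of log2(CPM + 1) lay between 0.11 and 0.19 in the 5 combinations of group and set, and the highest pair reached 0.45 (Otx2 and Pim2, wild type of set 1). The sets are told apart only by their reads and depth can add to such values, so these are descriptions. Some larger values joined Eras to genes outside the 9, and they rest on the minority of wild type cells with an Eras read. With Mesp1, r was -0.34 in set 2 at E6.75 (89 cells) and -0.39 and -0.43 at E7.25. With the mesoderm receptor gene Pdgfra it was -0.51, -0.37 and -0.42. In set 1 at E6.75 these were -0.07 and 0.05, and in knockout -0.03 and -0.02. With Cdh1, which encodes E-cadherin of the epithelium, Eras gave 0.34 to 0.48 in the 4 wild type combinations and 0.20 in knockout. Pim2 gave 0.38 to 0.47 and 0.06. Other members gave such values too: in wild type of set 2 at E6.75, Utf1 0.44, L1td1 0.43, Nanog 0.38 and Slc7a3 0.37. There Pou5f1 gave 0.28, Otx2 0.22 and Sox2 0.10. In knockout these other members ran from -0.08 for Otx2 to 0.35 for Utf1. At E7.25 the cells of set 2 with a Nanog read more often had a read of Cdh1, 42.1% against 17.1%, while Mesp1 was read in 92.98% and 98.2%.

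The genes whose pattern was most like that of Pou5f1 were taken over the 89 wild type cells at E6.75 of set 2, among 9095 genes read in at least 50% of them. Among the 8 highest were Tomm40 (r = 0.76), Hmga1b (0.76), Med25 (0.75), Rnf187 (0.75), Spout1 (0.74), Farsa (0.74) and Fkbp4 (0.73). Pou5f1 had an r of 0.30 with depth in these cells. Elsewhere Tomm40 gave 0.27 in wild type of set 1, 0.52 in knockout and 0.28 and 0.31 at E7.25. Hmga1b gave 0.72 in knockout, 0.25 in wild type of set 1 and 0.34 in each set at E7.25. Fkbp4 gave 0.60 in knockout, 0.34 in wild type of set 1 and 0.44 and 0.37 at E7.25. Spout1 was at 0.12 and 0.19 at E7.25, and Farsa at 0.24 in knockout. The genes were picked as the highest of 9095 in 1 group, and those named here gave lower values in all others.

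Other genes of the same biology were counted in 4 lists of 16 genes, with genes of at least 1 CPM in either group. Of the naive pluripotency genes, 3 of 10 were at least 2-fold lower at E7.25 and 1 was higher, where 2.09% and 4.93% of all genes were. Prdm14, a repressor that guards the naive state, was at 0.860 CPM against 13.3 CPM, and Dppa5a at 7.18 against 46.2 CPM, while Fgf4 was higher at 27.8 against 9.52 CPM. Of the general pluripotency genes 1 of 14 was lower, Tdgf1 at 604 against 1217 CPM. Among formative and primed epiblast genes 2 of 15 were lower and 2 higher. Nodal, the ligand that maintains primed epiblast, was at 2.90 against 38.5 CPM, and Epcam, an epithelial adhesion gene, at 96.1 against 226.7 CPM, whereas Lef1, a Wnt effector, was at 232.8 against 100.8 CPM. Tcf15, a mesoderm factor also made in primed cells, was at 13.1 against 4.95 CPM, with log2 ratios of -0.52 in set 1 and 1.75 in set 2. Of the 15 exit regulators, signalling and repressor genes that dismantle the naive state, 0 passed 2-fold in either direction. The lists' median log2 ratios were -0.49, -0.06, -0.13 and 0.08, against 0.03 for all genes.

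In knockout against wild type of set 1, the naive list had 3 of 11 genes 2-fold higher and 2 lower, the general list 2 of 15 higher, the formative list 4 of 15 higher and the exit regulators 1 of 16 lower, where 4.8% of all genes were higher and 7.64% lower. Nodal was at 89.4 CPM in knockout cells against 35.6 CPM, Prdm14 at 27.6 against 11.002 CPM and Cldn6, a tight junction gene of epiblast, at 124.4 against 28.3 CPM. Fgfr1, the FGF receptor, was at 42.1 against 106.9 CPM and Tbx3 at 15.5 against 37.6 CPM. The cell with the Utf1 reads weighed here too, and without it the naive list had 2 of 10 higher and 3 lower, and the general list 0 of 14 in either direction. The formative list had 3 of 15 higher and the exit regulators 1 of 16 lower. Of all genes 4.53% were higher without the cell, and the share that was lower was not counted. Dppa4 was then at 2.74 in place of 8.63 CPM and Sall2 at 10.1 in place of 21.7 CPM, while Nodal was at 94.5 CPM and Cldn6 at 94.8 CPM. The median log2 ratios were 0.31, 0.10, 0.69 and -0.06 with the cell and 0.07, 0.08, 0.40 and -0.09 without it, against -0.03 and -0.02 for all genes.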

How the data were processed

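Single-cell RNA libraries of 598 sorted mouse cells were read from 1 table of raw read counts per gene that the authors deposited, and no scaling is visible in them. The submitters' processing notes name GSNAP, HTSeq 0.5.3p3 and build mm10. The parameters, annotation and strand setting: not given in the sources used here. Of 40912 genes, 40254 matched a symbol in GENCODE M21 (GRCm38), which gave coordinates and exon lengths. Groups are those of the labels: at E6.75, 172 cells were wild type and 85 knockout, and at E7.25 all 341 were wild type. Cells needed 100000 reads and 2000 genes, which removed 0, and 0 columns had no sample. No 2 cells had identical counts.

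Reads were summed within a group and divided by its total over genes (CPM), so deep cells weigh most. Log2 ratios add 1 CPM, which understates differences of low genes, and a gene was called at 2-fold. Each group is 1 sample, so no test was run. Intervals are exact Poisson and Clopper-Pearson at 95%. Shares of cells use cells thinned at random to 100000 reads. A cell belongs to library set 1 (83, 85 and 173 cells of those groups) where 5 or more of Foxe1, Dusp15, Six3, Vax1, Sox3, Kcnk12, Hoxd13 and Pou3f3 had reads; 341 cells had all 8 and the others (89 and 168 wild type cells) at most 4. Cells with Y-linked reads had over 3 CPM summed over Eif2s3y, Uty and Kdm5d. Named genes are the 9 members, Mesp1, up to 4 genes of at least 5 CPM per list and comparison with the largest absolute log2 ratio, and the 8 genes most correlated with Pou5f1, leaving out mitochondrial, Y-linked and predicted genes; Pdgfra, Cdh1 and the genes of the Utf1 cell were chosen after their values were seen. A few others that the rule names are not reported here. The members, lists and marker genes were chosen with earlier results of these data known.

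The ratio step was tested on simulated data. Tools were Python 3.11.15, numpy 2.4.6, scipy 1.17.1, pandas 2.3.3 and R 4.3.3, with edgeR 4.0.16 and DESeq2 1.42.0 used for scaling factors only. Alternatives were those scalings, equal weighting, thinning, 10 CPM added, other cell filters, single library sets, cells split by Y-linked reads, and leaving out the deepest cells or those with most reads of a gene.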

Additional observations from a re-analysis of the deposited data

How the results depend on the processing

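Nanog, Pim2 and L1td1 stayed at least 2-fold lower at E7.25 in all 14 alternatives, with log2 ratios of -3.07 to -2.03, -3.63 to -1.89 and -2.45 to -1.10. The count of 3 members became 5 with every cell weighted equally, where 1.98% of all genes were lower. It was also 5 with the 5% deepest cells left out, and Sox2 and Utf1 joined in both. In knockout the count of 4 became 2 with equal weighting, where 3.83% of all genes were higher, and 2 with thinning (Utf1 and Eras in both). It became 1 (L1td1) without the 5% deepest cells. For thinning and for leaving out the deepest cells the share over all genes was not counted, so those counts have no background beside them. Utf1 changed direction in knockout, to -0.12 without the 5% deepest cells and to -0.86 in cells without Y-linked reads. Over 16 alternatives the knockout ratio ran from 0.97 to 2.39 for Eras, 0.17 to 1.97 for L1td1, 0.05 to 1.40 for Nanog and -0.12 to 1.52 for Slc7a3. Of the small ratios, Eras by stage turned to -0.09 without the 5% deepest cells and -0.23 as the difference of mean log2(CPM + 1) per cell, Pim2 in knockout to 0.32 by that measure and Otx2 in knockout to -0.07 in cells with Y-linked reads. Both scaling factors left the called members unchanged. No paired analysis was possible because each group is 1 sample and cell numbers pair nothing. Set 2 holds no knockout cell, so knockout and wild type can be compared in set 1 only, and levels under about 1 CPM, as for Sox2, rest on few reads in few cells.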
